A study of Mus musculus with 6 samples.

Results

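Genes for bicarbonate, chloride and sodium-proton transport were followed in the first molar germs of 7-day-old mice. The set holds 28 named genes out of the 48709 gene rows of the deposited count table: 9 of the Slc4 bicarbonate transporter family, 11 of the Slc26 anion exchanger family, 7 of the Slc9 sodium-proton exchanger family and the chloride channel gene Cftr. They were named by gene family, without the red cell exchanger gene Slc4a1 and with no threshold on their values, but earlier results of these data were known when the set was proposed. Of the 28 genes, 19 are listed in the deposited normalised table. The other 9 had at most 5 counts in any library, and 14 of the 19 passed the filter on low counts and could be tested.

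RNA came from wild-type mice (WT, 3 libraries) and from littermates with the genotype Gpr115-/- (Gpr115-KO, 3 libraries), all of the C57BL/6 strain. Gpr115, now named Adgrf4, is a receptor gene of the adhesion G protein-coupled class, and the series title ties it to enamel mineralization by ameloblasts, the epithelial cells that form enamel. The labels say neither which part of the gene was deleted nor how many animals gave each library, and p-values therefore reflect only the spread among these libraries, which may be technical. Library totals ran from 8317302 to 11122821 counts, so that 1 count was worth 0.0907 to 0.114 CPM (counts per 1e6, scaled by TMM). As a check of the labels, Adgrf4 averaged 65.7 ± 2.77 CPM (WT) against 29.1 ± 9.39 CPM (Gpr115-KO; SD, n = 3), with every Gpr115-KO library below every WT library (log2 fold change −1.18, edgeR adjusted p = 0.0887).

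As background, hydroxyapatite crystals release protons as they grow, and maturing ameloblasts are held to neutralise this acid by moving bicarbonate into the enamel space. Carbonic anhydrases make bicarbonate within the cell, Slc4 cotransporters bring it in with sodium, and Slc4 and Slc26 exchangers trade it for chloride. Cftr conducts chloride and bicarbonate, and Slc9 exchangers carry protons against sodium, several of them in the membranes of internal compartments. Human loss of the bicarbonate cotransporter SLC4A4 is known for kidney acidosis with enamel defects. Several Slc26 proteins carry sulfate or other anions rather than bicarbonate.

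None of the 14 tested transporters passed the test for a difference between the genotypes. In edgeR's quasi-likelihood test over all 16011 genes their adjusted p-values lay between 0.480 and 0.988, and 0 of 14 passed 0.05, against 0.15% of all genes tested. At an unadjusted p under 0.05 there were also 0 of 14, where all genes gave 12.3%. DESeq2 (background 1.55%), limma-voom and limma-trend likewise called 0 of 14. The fitted log2 fold change was below 0 in 10 of 14 transporters, with a median of −0.14. That median was −0.33 without Gpr115-KO replicate 1 and −0.033 without Gpr115-KO replicate 2. Over all genes tested 48.7% lay below 0 and the median was 0.013.

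Promoter sequence is shown for 3 genes: Cftr and Slc26a1, in which Gpr115-KO replicate 1 was above and replicates 2 and 3 were below every WT library, and Slc4a4, the transporter with the highest mean level per exonic length in WT. RefSeq windows (GRCm38.p6) were found for 9 of the 14 tested transporters. Each sequence below is the 250 bases before an annotated start, on the gene's strand, 5′ to 3′. Capitals mark the letters searched for on both strands: the GC box GGGCGG, the AP-1 core TGANTCA and the RUNX core TGTGGT.
Cftr (chr6:18170437-18170686, plus strand): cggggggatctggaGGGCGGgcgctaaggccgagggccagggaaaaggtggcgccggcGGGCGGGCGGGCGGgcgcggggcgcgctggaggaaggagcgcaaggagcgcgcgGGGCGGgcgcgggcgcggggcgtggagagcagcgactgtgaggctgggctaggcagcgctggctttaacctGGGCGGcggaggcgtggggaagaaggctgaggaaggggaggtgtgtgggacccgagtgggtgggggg
Slc26a1 (chr5:108674797-108675046, minus strand): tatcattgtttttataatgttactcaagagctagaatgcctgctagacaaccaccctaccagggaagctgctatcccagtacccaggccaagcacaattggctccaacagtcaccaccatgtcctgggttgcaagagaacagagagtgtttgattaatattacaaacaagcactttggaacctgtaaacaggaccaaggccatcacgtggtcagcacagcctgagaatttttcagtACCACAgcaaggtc
Slc4a4, downstream start (chr5:89027716-89027965, plus strand): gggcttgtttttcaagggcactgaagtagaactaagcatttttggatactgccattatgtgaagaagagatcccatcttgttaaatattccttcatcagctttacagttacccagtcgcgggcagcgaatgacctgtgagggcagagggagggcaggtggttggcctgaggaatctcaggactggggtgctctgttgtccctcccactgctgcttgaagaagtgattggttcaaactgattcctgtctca

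The 3 windows differed in composition. That of Cftr had 76.4% G and C, 30 CpG pairs and 6 GC boxes, 3 of which overlap in a row. That of Slc26a1 had 46.0% G and C and 1 CpG pair, with a RUNX core at position −14 from the start. A second Slc26a1 window, at an upstream start, had 46.8% G and C, 4 CpG pairs, an AP-1 core at position −61 and no RUNX core. The window at the downstream start of Slc4a4 had 48.8% G and C, 3 CpG pairs and none of the 3 motifs. At the upstream start of Slc4a4, which gives another form of the transporter, the window had 82.0% G and C and 44 CpG pairs. It held 1 GC box, at position −115, and neither of the other motifs. All 250 bases of that window lie in annotated untranslated regions (UTR) of transcripts. Counts per gene do not separate transcripts from these starts. Of the 12 windows used for the tested transporters, none on chromosome 18, 5 held a GC box, 2 an AP-1 core and 1 a RUNX core. Among all 32851 RefSeq windows of this length, with no chromosome left out, the shares were 32.7%, 6.75% and 14.0%. Annotated UTR also covered 250 bases of the Slc26a6 window and 117 of the Slc4a3 window, both counted for a GC box. It covered 204 bases of the second Slc26a1 window, counted for an AP-1 core.

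Levels can be compared between genes only per length, and were taken as CPM per kb of exonic length in WT. Slc4a4, with 7.31 ± 0.55 CPM per kb, and Slc4a2, with 7.00 ± 0.88 CPM per kb (SD, n = 3), led the set, and their ranges over the WT libraries overlapped. Slc26a7 (4.24 ± 1.09 CPM per kb) and Slc26a1 (3.23 ± 1.13 CPM per kb) followed, below both Slc4 genes in every WT library and overlapping each other. A group of 8 genes came next. It ran from Slc26a2, at 1.76 ± 0.09 CPM per kb, through Slc26a11, Cftr, Slc9a8, Slc26a6, Slc9a9 and Slc4a11 to Slc4a3, at 0.87 ± 0.29 CPM per kb. Each gene of that group overlapped its neighbours in the order. All remaining members lay at or below 0.32 CPM per kb. Exonic length was taken over all annotated transcripts, so a gene with unused exons reads low on this scale.

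**Figure D1:**
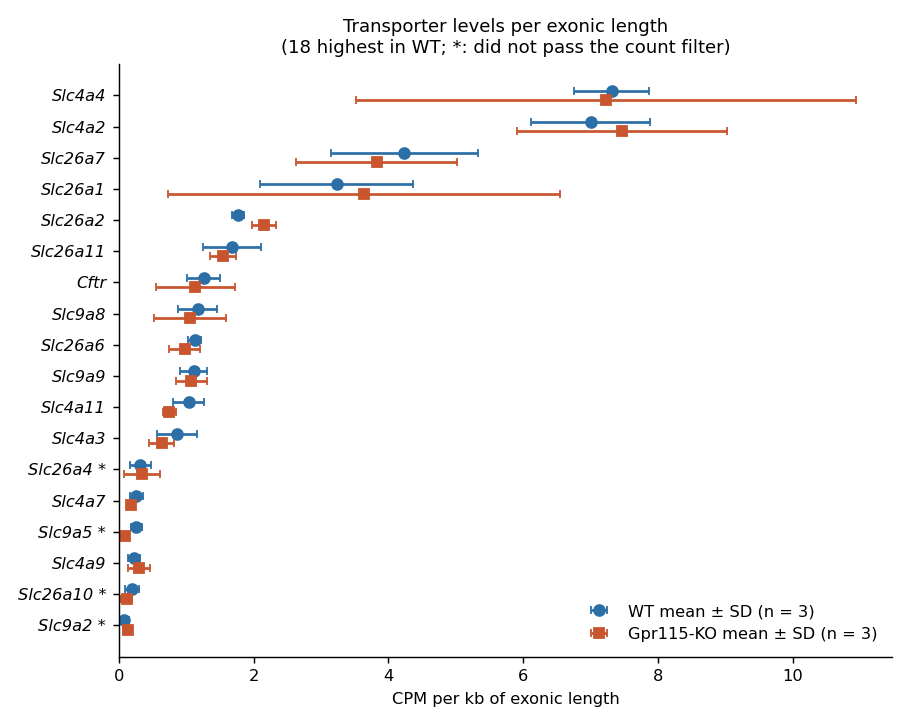
Mean level of the 18 transporter genes highest in WT, in CPM per kb of exonic length (horizontal axis), with SD over 3 libraries; circles are WT, squares Gpr115-KO, and an asterisk marks genes that did not pass the count filter. Slc4a4 and Slc4a2 lead at 7.31 and 7.00 CPM per kb in WT, and the Gpr115-KO bars of Slc4a4 and Slc26a1 are the widest.

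Slc4a4 encodes NBCe1, an electrogenic sodium-bicarbonate cotransporter (ENSMUSG00000060961; chromosome 5, 88886818 to 89239653 on GRCm38, plus strand). The WT libraries read 79.5, 84.8 and 72.9 CPM in replicates 1 to 3 and the Gpr115-KO libraries 80.9, 117 and 36.7 CPM. The WT libraries lay close together, while Gpr115-KO replicate 2 was above and replicate 3 below all of them. The ratio of the highest to the lowest library was 1.16 in WT and 3.18 in Gpr115-KO. Means were 79.1 ± 5.97 and 78.1 ± 40.1 CPM (SD, n = 3), which gave a log2 fold change near 0 (−0.019, SE 0.35, 95% interval −0.81 to 0.77, edgeR adjusted p = 0.988). With a trend on gene length removed the sign turned, at 0.15, and with library totals alone it was 0.037. Of 4 markers of secretory ameloblasts, the matrix genes Ambn (82632, 140561 and 53962 CPM) and Enam (11716, 13871 and 7911 CPM) were ordered in the same way among the Gpr115-KO libraries. In the other two, Amelx (22779, 46000 and 28655 CPM) and Mmp20 (892, 1290 and 933 CPM), replicate 1 was the lowest. The 4 markers summed to 106892 to 139960 CPM in WT and 91462 to 201722 CPM in Gpr115-KO, and none was at 0. Whether the number of secretory cells had a part in the Slc4a4 values was not tested. In such bulk RNA, fewer cells of a type and less RNA per cell cannot be told apart.

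Slc4a7 encodes the electroneutral cotransporter NBCn1 and had the lowest fitted value of the 14 tested genes. It had 4.44, 5.11 and 2.34 CPM (WT) against 3.19, 2.57 and 2.56 CPM (Gpr115-KO). WT replicate 3 was the lowest of the 6 libraries, so the groups overlapped. The fitted difference was −0.52 on the log2 scale (SE 0.36, edgeR adjusted p = 0.596). It ran from −0.78 without WT replicate 3 to −0.30 without WT replicate 2, and was −0.29 with the trend on gene length removed. The neuronal cotransporter genes Slc4a8 and Slc4a10 had at most 9 counts and 1 count in any library, and Slc4a5, known from the choroid plexus, at most 2.

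Slc4a2 encodes the chloride-bicarbonate exchanger AE2 (ENSMUSG00000028962; chromosome 5, 24423837 to 24440950, plus strand). It read 50.2, 64.6 and 60.0 CPM (WT) against 75.8, 60.7 and 49.9 CPM (Gpr115-KO). The Gpr115-KO libraries lay on both sides of the WT range. The fitted log2 fold change was 0.093 (SE 0.18, 95% interval −0.31 to 0.50, edgeR adjusted p = 0.872). Without WT replicate 1 or Gpr115-KO replicate 1 it fell just below 0, at −0.0030 and −0.074. Slc4a2 shares 1141 exonic bases with Fastk, a gene on the opposite strand with 81.4 to 97.3 CPM, and without strand information reads from that stretch cannot be told apart. Osteoclasts are known for AE2 too. Of 6 osteoclast markers, the protease gene Ctsk was higher in each Gpr115-KO library (36.7 to 45.7 CPM) than in WT (21.3 to 31.2 CPM) without passing the test (edgeR adjusted p = 0.233). Ctsk and Acp5 made up most of their summed level, which was 44.2 to 52.1 CPM in WT and 55.1 to 73.6 CPM in Gpr115-KO. Acp5 (18.3 and 22.4 CPM in the means of WT and Gpr115-KO) and Atp6v0d2 (1.18 and 1.86 CPM) overlapped between the genotypes. The means of Ocstamp (0.48 and 0.325 CPM), Dcstamp (0.823 and 0.556 CPM) and Calcr (0.336 and 0.132 CPM) were lower in Gpr115-KO, at counts too low for the test. No marker of that list was at 0 in all libraries, and the part of these cells in the Slc4a2 values was not tested.

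The other tested Slc4 genes were lower expressed. Slc4a3, which encodes the exchanger AE3 of heart and nerve, had 8.43, 9.32 and 4.57 CPM (WT) against 6.49, 6.31 and 3.66 CPM (Gpr115-KO). Within both genotypes replicate 3 was the lowest, and the fitted log2 difference was −0.44 (SE 0.33, edgeR adjusted p = 0.622). Slc4a11, whose product moves protons or their equivalents rather than bicarbonate and is known from the cornea, had 6.53, 4.43 and 4.57 CPM (WT) against 4.10, 3.21 and 3.93 CPM (Gpr115-KO). Every Gpr115-KO library was below every WT library, with the highest Gpr115-KO value, 4.10 CPM, just below the lowest WT value, 4.43 CPM. A log2 fold change of −0.47 was fitted (SE 0.29, 95% interval −1.11 to 0.17, edgeR adjusted p = 0.549). Slc4a9, encoding AE4 of the kidney, had 1.42 ± 0.552 CPM (WT) against 1.91 ± 1.02 CPM (Gpr115-KO; SD, n = 3), with overlapping libraries. Its log2 fold change of 0.42 was the highest of the 14 tested genes (SE 0.51, 95% interval −0.70 to 1.54, edgeR adjusted p = 0.778).

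In the Slc26 family, sulfate transporter genes stood beside genes for chloride and bicarbonate exchange. Slc26a2, the sulfate transporter gene needed for sulfated proteoglycans of cartilage (ENSMUSG00000034320; chromosome 18, 61192919 to 61211612, minus strand), had 21.3, 21.0 and 23.1 CPM (WT) against 24.4, 28.8 and 27.0 CPM (Gpr115-KO). Each Gpr115-KO library was above each WT library. Relative to WT the Gpr115-KO mean stood at 122%, and the log2 fold change was 0.29 (SE 0.16, 95% interval −0.06 to 0.64), which did not pass the test (edgeR adjusted p = 0.480). This was the smallest p of the 14 tested genes. With the trend on gene length removed, the log2 fold change of Slc26a2 was 0.48 (edgeR adjusted p = 0.345). Slc26a2 and Slc4a11 were the 2 of 14 transporters whose libraries did not overlap between the genotypes, 1 in each direction. Over all genes tested 17.5% did not overlap, 8.55% higher and 8.99% lower in Gpr115-KO.

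Slc26a1 encodes a sulfate and oxalate transporter (ENSMUSG00000046959; chromosome 5, 108669878 to 108675569, minus strand). It had 18.3, 9.77 and 11.2 CPM (WT) against 28.3, 9.09 and 6.86 CPM (Gpr115-KO). Gpr115-KO replicate 1 was above every WT library, and replicates 2 and 3 were below every WT library. Over all libraries the fitted log2 difference was 0.16 (SE 0.53, edgeR adjusted p = 0.931). It turned to −0.72 without Gpr115-KO replicate 1 (edgeR adjusted p = 0.339), and was −0.013 without WT replicate 2, −0.12 with limma-voom and −0.048 with limma-trend. Slc26a1 shares 141 exonic bases with Idua on the opposite strand, a lysosomal enzyme gene at 6.52 to 12.7 CPM.

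Slc26a7, encoding an anion exchanger or channel known from stomach, kidney and thyroid (chromosome 4, 14502430 to 14621805, minus strand), had 29.6, 21.5 and 18.0 CPM (WT) against 28.3, 17.0 and 17.1 CPM (Gpr115-KO). Replicate 1 was the highest library within each genotype. Its log2 fold change was −0.15 (SE 0.25, 95% interval −0.71 to 0.41, edgeR adjusted p = 0.848), and 0.074 without WT replicate 1. Slc26a6, a chloride exchanger gene of many epithelia, had 6.71, 5.68 and 5.89 CPM (WT) against 3.87, 6.09 and 5.94 CPM (Gpr115-KO). Here Gpr115-KO replicate 1 was the lowest library, and the log2 fold change was −0.20 (SE 0.27) with it and −0.020 without it. Slc26a11, whose product has been tied to sulfate transport, had 6.26, 4.43 and 7.52 CPM (WT) against 6.38, 5.24 and 5.12 CPM (Gpr115-KO), all within the WT range, and its log2 fold change was −0.13 (SE 0.28). Slc26a6 and Slc26a11 had edgeR adjusted p-values of 0.808 and 0.887.

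The remaining 6 Slc26 genes did not pass the count filter. Slc26a4, encoding the exchanger pendrin of thyroid and inner ear, had 6, 8 and 15 counts in WT and 6, 5 and 22 counts in Gpr115-KO, so replicate 3 was the highest in both genotypes. Slc26a10 had 1 to 11 counts, and shares 715 exonic bases with B4galnt1 on the opposite strand. Slc26a3, an exchanger gene of the gut, Slc26a5, the hair cell motor gene prestin, and Slc26a9, a chloride channel gene of airway and stomach, had at most 3 counts in any library. Slc26a8, a testis gene on chromosome 17, the chromosome of Adgrf4, had 0, 1 and 0 counts in WT and 4, 0 and 5 in Gpr115-KO. A count of 0 in 1 library allowed a level of up to 0.272 to 0.342 CPM (3 counts, counting error only).

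Of the Slc9 genes, 2 passed the filter, and both encode exchangers of internal membranes. Slc9a8, encoding NHE8 (chromosome 2, 167421712 to 167477000, plus strand), had 13.5, 8.30 and 10.2 CPM (WT) against 13.7, 4.28 and 10.9 CPM (Gpr115-KO). Gpr115-KO replicate 2 was the lowest of the 6 libraries and replicate 1 the highest, while replicate 3 lay within the WT range. The genotypes differed by −0.15 on the log2 scale (SE 0.38, edgeR adjusted p = 0.900), and by 0.20 without Gpr115-KO replicate 2. Slc9a9, encoding NHE9 of endosomes, had 5.71, 5.57 and 7.62 CPM (WT) against 4.79, 6.09 and 7.41 CPM (Gpr115-KO), and differed by −0.044 on the log2 scale (SE 0.27, edgeR adjusted p = 0.962).

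Plasma membrane exchangers of the Slc9 family were near or under the limit of detection. Slc9a3 and Slc9a4, known from kidney, gut and stomach, had at most 1 count in any library, and Slc9a7, of the trans-Golgi, at most 3. Slc9a2, an exchanger gene of gut epithelium, had 7, 0 and 10 counts in WT and 4, 13 and 10 counts in Gpr115-KO. Slc9a5, an exchanger gene of the nervous system, had 20, 11 and 10 counts in WT and 3, 2 and 9 counts in Gpr115-KO. These correspond to 1.36 ± 0.41 and 0.46 ± 0.321 CPM (SD, n = 3), with every Gpr115-KO library below every WT library. It failed the count filter. In edgeR without a filter its log2 fold change was −1.51 (SE 0.70), which did not pass after adjustment (adjusted p = 0.391).

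Cftr encodes the chloride and bicarbonate channel of secretory epithelia (ENSMUSG00000041301; chromosome 6, 18170687 to 18322768, plus strand). It had 10.8, 7.62 and 10.9 CPM (WT) against 14.0, 5.77 and 6.59 CPM (Gpr115-KO). As with Slc26a1, Gpr115-KO replicate 1 was above every WT library, and replicates 2 and 3 were below every WT library. On the log2 scale the fitted difference was −0.16 (SE 0.34, 95% interval −0.91 to 0.59, edgeR adjusted p = 0.881). Leaving out Gpr115-KO replicate 1 gave −0.66 (edgeR adjusted p = 0.323), and leaving out replicate 2 or 3 gave 0.065 and 0.013.

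**Figure D2:**
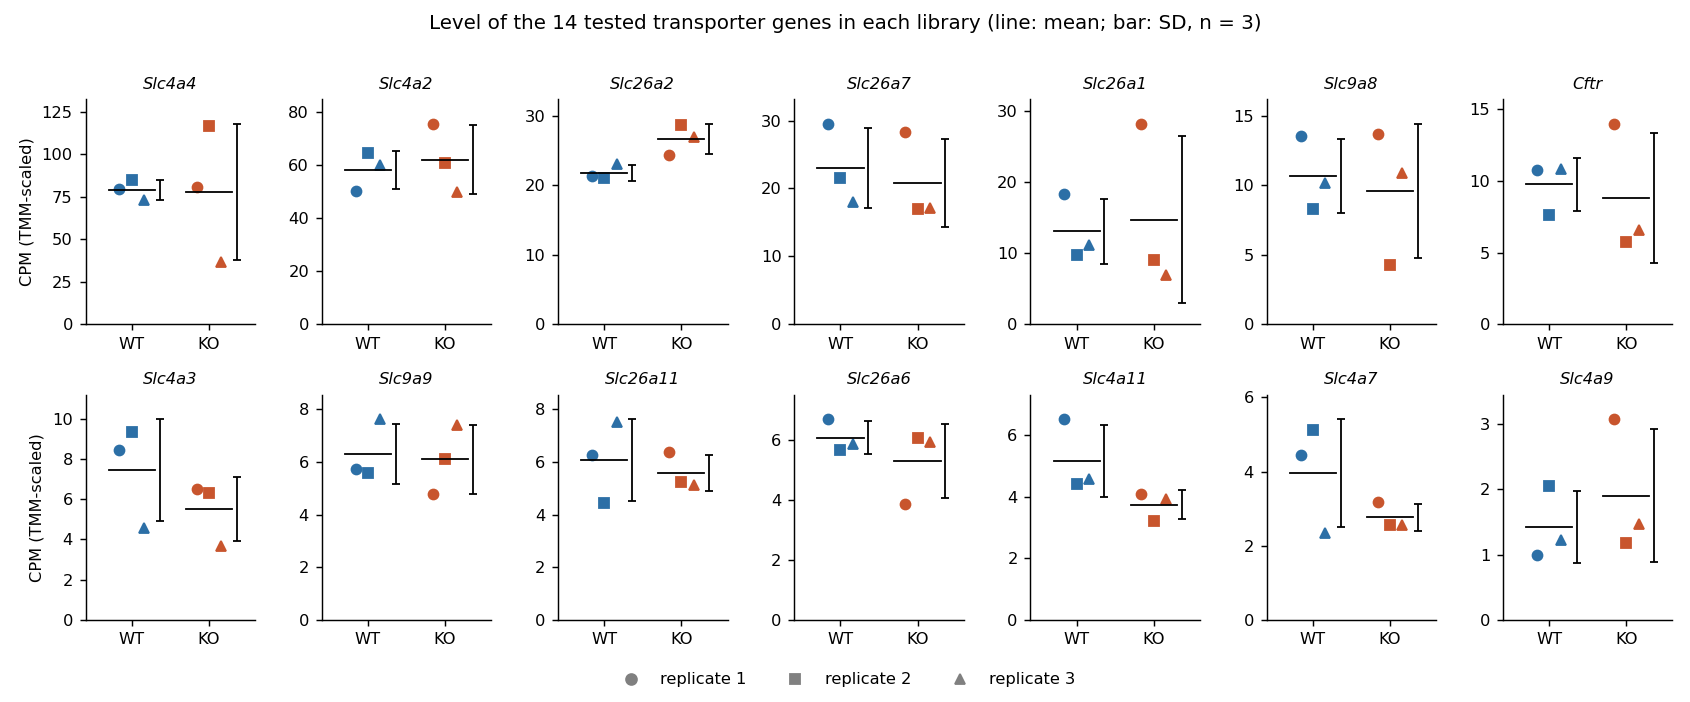
Level of each of the 14 tested transporter genes in CPM scaled by TMM (vertical axes start at 0), 1 panel per gene, with WT in blue, Gpr115-KO in orange and 1 symbol per replicate number; lines are means and bars SD, n = 3. Slc26a2 and Slc4a11 are the panels whose genotypes do not overlap, and in those of Slc26a1 and Cftr Gpr115-KO replicate 1 lies above and replicates 2 and 3 below all WT libraries.

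**Figure D3:**
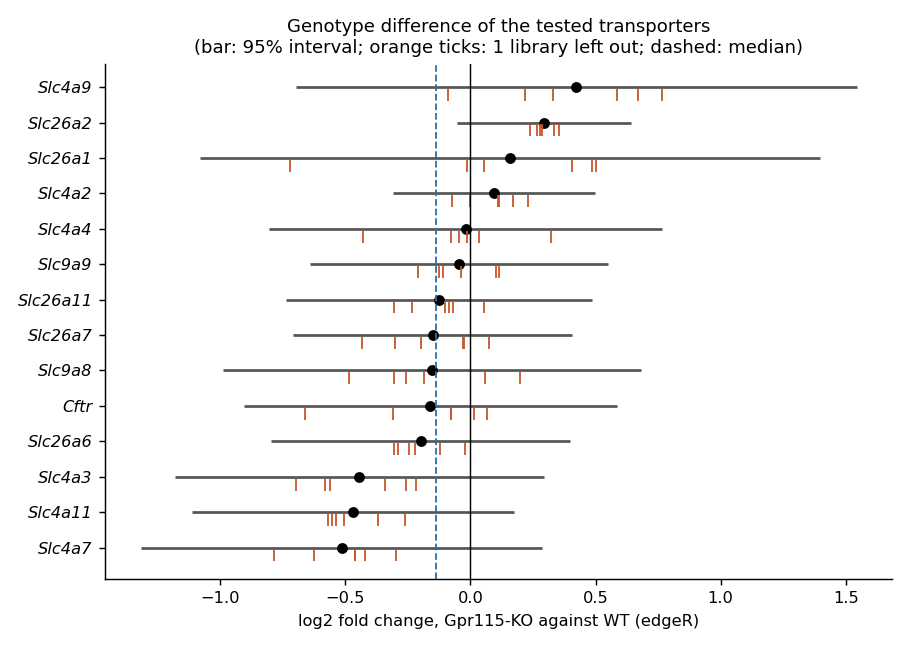
Log2 fold change of Gpr115-KO against WT for the 14 tested transporters (points) with 95% intervals from edgeR, and, as short orange ticks, the value with each of the 6 libraries left out. All intervals include 0, the dashed line marks the median of −0.14, and the ticks of Slc26a1 spread from −0.72 to 0.50.

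The spread among the Gpr115-KO libraries was larger than any difference between the genotype means in the most variable transporters. The ratio of the highest to the lowest Gpr115-KO library was 4.12 for Slc26a1, 3.20 for Slc9a8, 3.18 for Slc4a4 and 2.43 for Cftr, where WT gave 1.87, 1.63, 1.16 and 1.43. The coefficient of variation was larger in Gpr115-KO than in WT in 10 of 14 transporters (71.4%), close to the 62.5% of all genes tested. Gpr115-KO replicate 1 was the highest Gpr115-KO library in 10 of 14 transporters, where 32.5% of all genes tested had that order. Replicate 3 was the highest in 1 of 14, against 30.9% of all genes. Ranks were uneven in WT too. There replicate 2 was the lowest WT library in 8 of 14 transporters, against 29.8% of all genes. WT replicate 1 was the lowest in 2 of 14, against 34.7%, while the highest place fell to replicates 1 to 3 in 5, 5 and 4 of 14. The median deviation of the 14 transporters from their WT mean was 0.13 in Gpr115-KO replicate 1, −0.19 in replicate 2 and −0.29 in replicate 3, on the log2(CPM + 0.1) scale. In WT it was 0.15, −0.082 and −0.079 in replicates 1 to 3.

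Genes of maturing ameloblasts varied over the same libraries. The order of Cftr and Slc26a1, with Gpr115-KO replicate 1 above and replicates 2 and 3 below all WT libraries, was looked for after their values were seen. It occurred in 2.02% of all genes tested. The 2 of 14 transporters with it were the same Cftr and Slc26a1 from which the order was taken, so that count was fixed beforehand. It also occurred in 4 of 6 maturation ameloblast markers: Klk4, the protease that clears enamel matrix, Odam, an ameloblast adhesion protein gene, Wdr72, an enamel defect gene, and Slc24a4, an exchanger gene of calcium and potassium against sodium. Slc24a4 read 19.7, 17.6 and 16.6 CPM (WT) against 26.6, 10.4 and 10.2 CPM (Gpr115-KO). None of the 4 secretory markers had this order. The summed level of the 6 maturation markers was 6273 to 6359 CPM (WT) against 8695, 1924 and 4977 CPM (Gpr115-KO replicates 1 to 3), of which Odam made up most. None of these 10 markers was at 0 in all libraries. What part the share of maturing cells had in the transporter values was not tested.

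**Figure D4:**
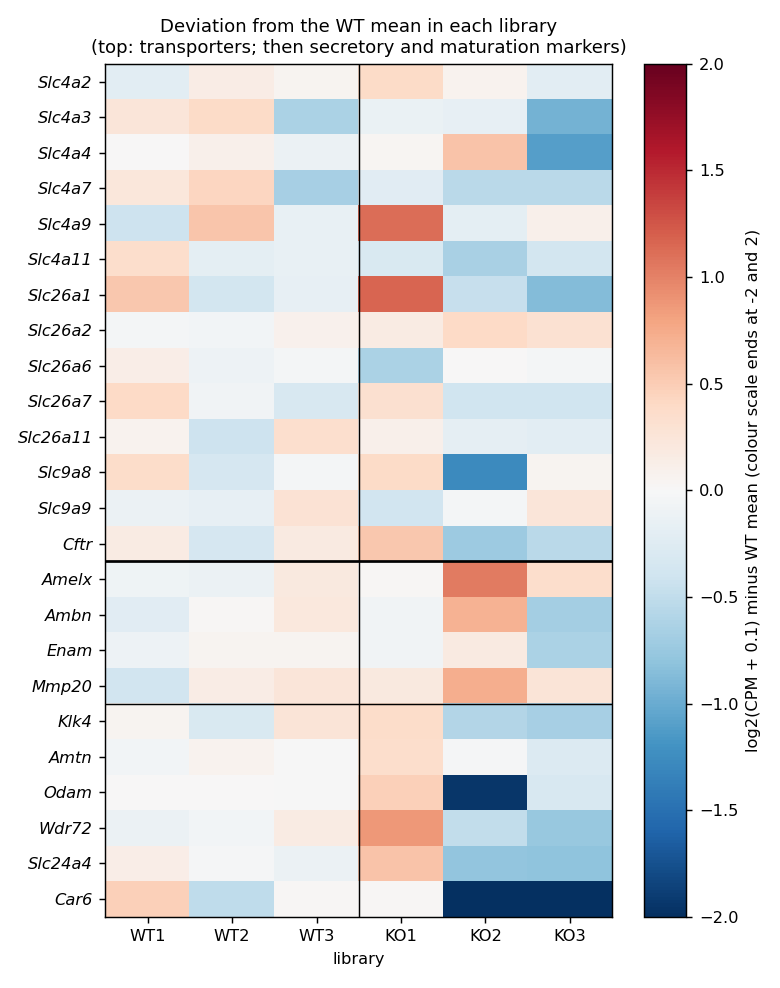
Colours give log2(CPM + 0.1) minus the WT mean for each library (columns, 3 WT and 3 Gpr115-KO) and gene (rows): the 14 tested transporters, then 4 secretory and 6 maturation ameloblast markers below the lines; values beyond −2, as for Car6 in Gpr115-KO replicates 2 and 3, take the end colour. Slc26a1, Cftr, Klk4, Odam, Wdr72 and Slc24a4 are red in Gpr115-KO replicate 1 and blue in replicates 2 and 3. Slc26a7, Slc26a11, Amtn and Car6 have the same signs, some of them faintly, but not all their Gpr115-KO libraries lie outside the WT range.

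Other tissues also differed between libraries. The 7 skeletal muscle markers summed to 197 CPM in Gpr115-KO replicate 2 and to 19.5 to 53.3 CPM in the other 5 libraries. The 7 erythroid markers summed to 139 to 158 CPM in WT and 159 to 396 CPM in Gpr115-KO, and the 6 neutrophil markers to 8.25 to 10.8 and 21.3 to 29.7 CPM. Keratinizing oral epithelium, a neighbouring tissue, was uneven too, with 7 markers at 37.2 to 128 CPM in WT and 35.3 to 235 CPM in Gpr115-KO, the highest in Gpr115-KO replicate 1. Neuron and Schwann cell markers, of interest for Slc4a8, Slc4a10 and Slc9a5, summed to 38.1 to 47.6 CPM in WT and 35.9 to 43.7 CPM in Gpr115-KO. Endothelial markers summed to 35.1 to 43.5 and 29.8 to 45.4 CPM and odontoblast markers to 4331 to 8692 and 3569 to 10025 CPM. The part of these tissues in the transporter values was not tested.

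Carbonic anhydrases, which supply bicarbonate to these transporters, were likewise not past the test, with 0 of 7 tested called and a median log2 fold change of 0.13. Car2, a cytosolic enzyme, had 68.6, 74.9 and 75.6 CPM (WT) against 109, 67.3 and 65.3 CPM (Gpr115-KO), and the membrane enzyme gene Car12 had 43.3, 46.5 and 35.1 CPM (WT) against 76.9, 32.6 and 27.6 CPM (Gpr115-KO). Both had the library order of Cftr and Slc26a1 and are named for it. The smallest p belonged to Car14 (log2 fold change 0.50, SE 0.39, edgeR adjusted p = 0.629) and to the secreted Car6 (−1.39, SE 1.15, edgeR adjusted p = 0.689). Car6 had 113, 7.48 and 12.3 CPM in the Gpr115-KO libraries.

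Regulators and scaffolds of the exchangers were measured by 14 genes, of which 0 were called, with a median log2 fold change of 0.059. The smallest p were those of kinases in the pathway that controls chloride cotransport. Wnk1 had 126, 123 and 86.6 CPM (WT) against 83.2, 73.5 and 67.0 CPM (Gpr115-KO), each below every WT library, for a fitted log2 difference of −0.59 (SE 0.18, edgeR adjusted p = 0.268). Oxsr1, a kinase that WNK kinases activate, had 4.69 ± 0.511 CPM (WT) against 6.82 ± 1.77 CPM (Gpr115-KO; SD, n = 3), for a fitted log2 difference of 0.53 (SE 0.28, edgeR adjusted p = 0.464).

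The chloride, sodium and potassium transporters that work beside the set had 16 of 20 genes tested and 0 called, with a median log2 fold change of −0.0082. Clcn6, an exchanger gene of late endosomes, had 7.71, 9.55 and 13.1 CPM (WT) against 7.41, 3.85 and 5.49 CPM (Gpr115-KO; log2 fold change −0.86, SE 0.30, edgeR adjusted p = 0.299). The libraries of the genotypes did not overlap, and the difference did not pass the test.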

How the data were processed

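RNA of first molars was extracted with TRIzol, and Nextera XT libraries, a kit that gives no strand information, were read as pairs on a HiSeq1500, per the labels' protocols. Alignment was with STAR 2.5.2a, and DESeq2, edgeR, limma and GRCm38 (mm10) are also named, per the submitters' processing notes. The read counter and its annotation release were not given in the sources used here. Raw counts and a normalised signal, CPM scaled by TMM per its name, were deposited by the authors. Dividing the signal by 1 factor per library returned whole reads throughout (100% within 0.01 reads, each equal to the count), and edgeR on these reads called 24 genes, as on the counts.

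The analysis covered 48709 gene rows in 6 libraries of 8317302 to 11122821 counts. A further 15 transgene rows, with at most 8 counts per library, were left out. The filter was filterByExpr with a minimum count of 10 and a minimum total of 15, which kept 16011 genes. The test was edgeR 4.0.16 (R 4.3.3), two-sided, with TMM scaling, robust quasi-likelihood dispersion and genotype as its sole term. P-values were adjusted by Benjamini-Hochberg over all genes kept and called under 0.05, and 24 genes passed. SE is the size of the log2 fold change over the root of its F statistic. Places, overlaps and exonic lengths came from GENCODE vM21 (GRCm38). The test was tried on simulated data. No pair of libraries was a repeat of another, with a chi-square per degree of freedom of 15.6 to 87.2.

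The members, gene lists and rules were chosen with earlier results of these data known. Values in every library are printed for members with a mean of at least 5 CPM, an unadjusted p under 0.05 or no overlap between genotypes, and for some others. Of each accompanying list the called genes are named, or the 2 of smallest p. One gene that this rule names is not reported here. The alternatives tried were other scalings (DESeq2 size factors, library totals alone), other filters (none, 10 counts in all libraries), other tests (DESeq2 1.42.0, with the same genes and, added after seeing the data, with no count filter, and from limma 3.58.1 voom and a trend fit on log2 of the deposited signal plus 1, over all its rows), edgeR without robust shrinkage, a replicate block, the recovered reads, removal of a gene length trend, a threshold of 0.1, and leaving out each library.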

Additional observations from a re-analysis of the deposited data

How the results depend on the processing

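None of the alternatives called a tested transporter, and the median log2 fold change of the 14 stayed below 0. It ran from −0.33 without Gpr115-KO replicate 1 to −0.033 without Gpr115-KO replicate 2, and was −0.046 with library totals alone and −0.053 with the gene length trend removed. With all 28 transporters in the fit, which takes in those with few counts, it was −0.034 in edgeR and −0.029 in DESeq2. The count of genes called over all genes moved from 24 to 243 with DESeq2 on the same 16011 genes, 500 in edgeR with no count filter, 237 with both changed (DESeq2 and no count filter, added after seeing the data), 51 at a threshold of 0.1 and 72 with the replicate block, and ran from 14 to 48 with 1 library left out. The labels do not say that replicate numbers mark a litter or day, and same-numbered libraries deviated together unevenly (correlations 0.27, 0.034 and −0.072). With the replicate block 0 transporters were called, with a median of −0.16.

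The sign of a single transporter turned in 22 of 252 refits, none of them called. Slc26a1 was at −0.032 with the replicate block, −0.12 with limma-voom and −0.048 with limma-trend. With the length trend removed and with library totals alone, Slc4a4 was at 0.15 and 0.037 and Slc9a9 at 0.015 and 0.042. With 1 library left out, log2 fold changes ran from −0.66 to 0.065 for Cftr, −0.72 to 0.50 for Slc26a1, −0.31 to 0.054 for Slc26a11, −0.43 to 0.074 for Slc26a7, −0.074 to 0.23 for Slc4a2, −0.43 to 0.32 for Slc4a4, −0.089 to 0.77 for Slc4a9, −0.49 to 0.20 for Slc9a8 and −0.21 to 0.11 for Slc9a9. With no turn of sign they ran from −0.78 to −0.30 for Slc4a7, −0.70 to −0.22 for Slc4a3, −0.57 to −0.26 for Slc4a11, −0.30 to −0.020 for Slc26a6 and 0.24 to 0.35 for Slc26a2. The cause was not tested. With 3 libraries a group, the 95% interval of Slc26a1 ran from −1.08 to 1.40, so a change of that size in this gene was not excluded.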
